A study of Mus musculus with 8 samples.

Results

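Sox4, Sox11 and Sox12, the mouse SoxC transcription factors, and Sox8 and Sox9, 2 of its SoxE factors, are 5 of the 17305 genes named on the array, and were measured by 10 of its 41174 probes that are not controls. A probe belonged to a gene when its RefSeq accession paired with that symbol. Sox4 and Sox12 had 1 probe each, Sox8 had 2, and Sox11 and Sox9 had 3 each, and 1 probe of Sox9 was printed as 10 spots. All 10 passed the filter on dim probes, as 39520 probes of the array did. The RNA came from whole kidneys of E13.5 mouse embryos on a mixed CD1 and C57BL/6 background, either wild type or mutant for the histone deacetylases HDAC1 and HDAC2 (UB HDAC1,2-/-), with the loss limited by label to the ureteric bud, whose branches become the collecting ducts. The labels do not name the Cre line behind the deletion. Each of 4 biological replicates paired 1 mutant and 1 wild type RNA on 2 arrays of exchanged dyes, replicates 1 and 2 on one slide and replicates 3 and 4 on another. The comparison sets kidneys with the deletion against kidneys without it. The labels do not say whether a replicate was 1 embryo or a pool.

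SOX proteins bind DNA through a high mobility group (HMG) domain and act with partner factors. SoxC proteins share a strong activation domain at their end and are known in progenitors that leave the cell cycle to differentiate, in the kidney in the nephron progenitors and early nephrons. SoxE proteins form dimers on DNA, and Sox9 and Sox8 are known to act redundantly in the bud tips, where they promote branching through effector genes of Ret signalling. Sox9 is also a key factor of cartilage and of the male gonad.

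The bases before the start of Sox4 and of Sox11 are shown because these close relatives are known for overlapping roles and the comparison between them is described in the results. Both come from RefSeq at GRCm38.p6, and the table held such an entry for 4 of the 5 genes. Each holds the 250 bases before the gene's start, on the minus strand, at chr13:28953700-28953949 for Sox4 and chr12:27342719-27342968 for Sox11. Capitals mark CCAAT boxes, read as CCAAT or, on the other strand, ATTGG.
Sox4: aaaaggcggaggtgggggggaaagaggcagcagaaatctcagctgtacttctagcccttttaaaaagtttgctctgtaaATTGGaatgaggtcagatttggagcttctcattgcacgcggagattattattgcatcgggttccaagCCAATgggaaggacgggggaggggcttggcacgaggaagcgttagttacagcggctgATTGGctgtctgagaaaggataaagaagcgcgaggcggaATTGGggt
Sox11: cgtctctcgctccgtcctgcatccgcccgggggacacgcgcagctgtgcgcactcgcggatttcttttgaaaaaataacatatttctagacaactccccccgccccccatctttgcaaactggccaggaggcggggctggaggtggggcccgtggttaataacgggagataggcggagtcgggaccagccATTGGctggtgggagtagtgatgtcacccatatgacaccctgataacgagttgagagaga
The Sox4 window held 4 CCAAT boxes and the Sox11 window 1. Of 32851 RefSeq windows of the same length, 33.8% held at least 1 and 0.84% held at least 4. The TATA box, searched as TATAAA or TTTATA, was found in neither window, and in 12.4% of all windows. GC boxes, searched as GGGCGG or CCGCCC, numbered 0 before Sox4 and 2 before Sox11, and 32.7% of all windows held one. G and C made up 50.8% of the Sox4 window and 58% of the Sox11 window, against a median of 52.4%. The arrays measured transcripts and nothing at these windows.

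In the scanner ratios, only Sox4 of these 5 genes was lower in the RNA labelled mutant in 4 of 4 replicates, as were 5.64% of all probes. After other normalizations, given below, 1 Sox11 probe was also lower in 4 of 4. Sox4 had 1 probe, so no agreement between probes could be seen. Its mean was 1.44-fold lower, and this did not pass the test over all probes. Sox12 had a mean near 0, and the probes of Sox11 disagreed in sign. Sox8 and Sox9 had means above 0 on all their probes in the scanner ratios, and none of these passed. The direction of every ratio is open. Signs here follow the dye labels, as mutant over wild type, while the authors' deposited table, whose direction is unstated, gives Sox4 a log2 ratio of 0.53, the scanner mean of -0.53 with its sign turned. All 309 entries of that table whose identifier has 1 probe had the opposite sign. Of its 496 entries, 459 equalled a scanner mean with its sign turned, within 0.01 (log2), and 0 equalled one as labelled. If that table was meant with the mutant as numerator, every sign below turns and Sox4 is the gene that stands higher in the mutant. Sox11, Sox12, Sox8 and Sox9 are not entries of the authors' deposited table, whose entries were selected on these same arrays.

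Hdac2, a deleted gene, does not settle the direction. Replicates 1, 2 and 3 gave log2 ratios of 0.60, 0.60 and 0.74 for it, replicate 4 gave -0.61, and cells outside the bud keep the gene. Hdac1 is not analysed here. Markers of the ureteric bud (7 of 7), nephron progenitors (4 of 4), stroma (5 of 5) and endothelium (4 of 4) were well above background. So were the 6 measured markers of neurons and glia and those of gonad (4 of 4) and cartilage (4 of 4). On each array, between 78.9% and 97% of the probes were well above background in a channel, no spot was saturated, and the number of arrays limits the precision. Replicate ratios correlated across probes between -0.15, for replicates 1 and 2, and 0.41, for replicates 3 and 4.

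Sox4 is a SoxC activator, and mice that lack it in nephron progenitors are known to form fewer nephrons. The processed signal of its probe, in scanner units and as the geometric mean over both dyes, was 7315, 7002, 5164 and 6674 in the RNAs labelled wild type of replicates 1 to 4. In the RNAs labelled mutant it was 4658, 4272, 3778 and 5394. The mutant was the lower of the pair in each replicate, while the groups overlapped, since the mutant of replicate 4 lay above the wild type of replicate 3. Of all probes, 0.445% were lower in the mutant with no overlap. Levels of different replicates also carry the brightness of their arrays.

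The Sox4 log2 ratios were -0.65, -0.71, -0.45 and -0.31 in replicates 1 to 4, with a mean of -0.53 ± 0.19 (SD, n = 4). Limma gave a 95% interval of -0.80 to -0.26, an unadjusted p of 0.00283 and a Benjamini-Hochberg adjusted p of 0.444 over all probes. The exact sign-flip permutation test gave p = 0.125 (two-sided, n = 4), the smallest that 4 replicates allow. Over all probes, limma called 0.0177% at an adjusted p under 0.05, which is 7 probes, none of them in these genes. That count was 0 without replicate 1, 3 or 4, 10 without replicate 2, and 133 with all 8 arrays fitted with the replicate as a block, where Sox4 had an adjusted p of 0.201. Of all probes, 5.64% were lower in 4 of 4 replicates, 6.01% had an unadjusted p under 0.05, with 2.86% lower, and 1.72% had a mean as low as that of Sox4. By p, Sox4 ranked at 249 among the 39520 probes.

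**Figure D1:**
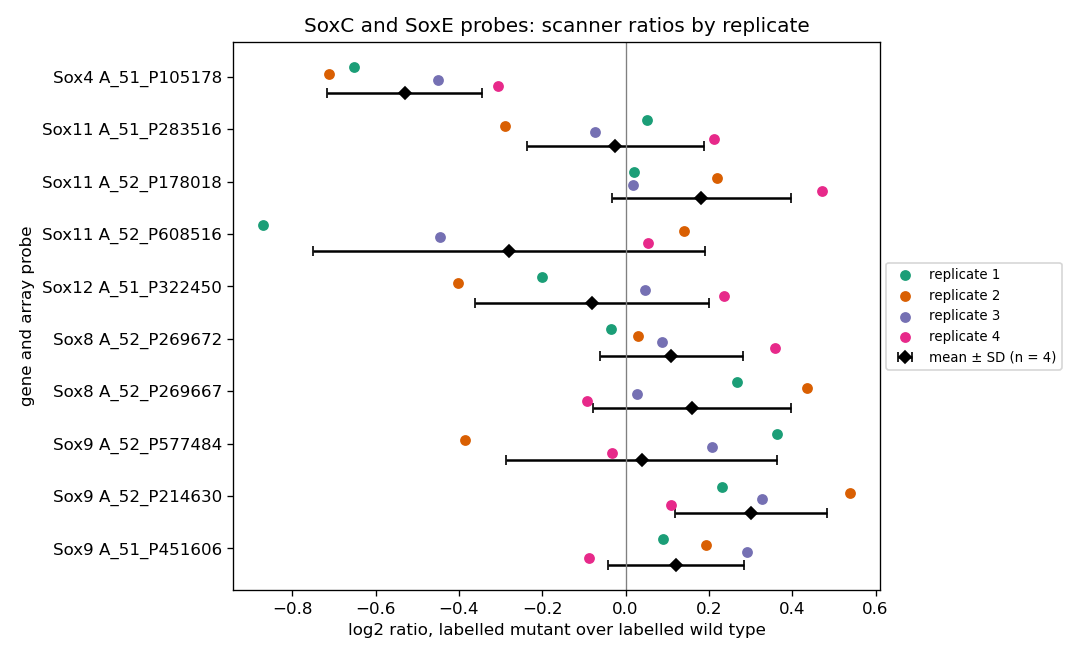
Log2 ratio of the labelled mutant over the labelled wild type (x axis) for the 10 probes (y axis), with 1 coloured point per replicate and the mean with its SD over 4 replicates as a black diamond with a bar. The 4 points of Sox4 lie between -0.71 and -0.31, and those of the brightest Sox11 probe between -0.29 and 0.21.

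The Sox4 ratio held its sign in both dye orientations. It averaged -0.52 ± 0.42 (SD, n = 4 arrays) with the labelled mutant in Cy5 and -0.55 ± 0.15 with it in Cy3, and was below 0 on 8 of 8 arrays, as were 1.06% of all probes. With normexp background correction at an offset of 50 and loess in place of the scanner's normalization, the mean was -0.50 ± 0.29 (SD, n = 4), with 7 of 8 arrays below 0. With median centring in place of loess it was -0.23 ± 0.31, with replicate 3 at 0.09. Within slide 1 the mean was -0.68 and within slide 2 it was -0.38. Sox4 passed in 1 alternative alone, with array weights (adjusted p = 0.0416 in limma, mean -0.47), which gave replicate 2 a weight of 0.18 and replicate 3 a weight of 4.07; over its alternatives the adjusted p ran from 0.0416 to 0.999. Without any 1 replicate the mean stayed between -0.61 and -0.47.

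Neurons and glia are cells in which Sox4 and Sox11 are also known to be expressed. The summed signal of their 6 measured markers was 7770 to 13002 in the RNAs labelled mutant and 12035 to 15576 in those labelled wild type. This sum was lower in the mutant of 4 of 4 pairs, while 5.64% of single probes were lower in 4 of 4 replicates. Of these markers 4 had a log2 ratio below 0, with a median of -0.12. The summed signal of the 4 nephron progenitor markers was 15659 to 27779 in the mutant and 15039 to 34782 in the wild type, lower in the mutant of 3 of 4 pairs. All 4 of these markers had a log2 ratio below 0, with a median of -0.11. The stromal sum was 28986 to 52683 in the mutant and 30917 to 64618 in the wild type, again lower in the mutant of 3 of 4 pairs. Of the 5 stromal markers, 4 had a log2 ratio below 0, with a median of -0.15. Of all probes, 46% lay below 0. The endothelial sum, 6876 to 10305 in the mutant and 6958 to 11589 in the wild type, was also lower in 3 of 4 pairs. The median log2 ratio of the endothelial markers was nevertheless 0.11, so a sum and a median can differ in direction. The part of these cell types in the Sox4 result was not tested. In RNA of a whole organ, fewer cells of a type and less RNA per cell cannot be told apart.

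Sox11, the SoxC factor most alike to Sox4 in its known roles, had 3 probes whose mean log2 ratios ran from -0.28 to 0.18, and none passed. On its brightest probe, A_51_P283516, the signal was 6386, 4538, 5764 and 5825 in the RNAs labelled mutant of replicates 1 to 4 and 6159, 5548, 6062 and 5027 in those labelled wild type. The mutant was the higher of the pair in replicates 1 and 4 and the lower in replicates 2 and 3. The mean log2 ratio was -0.02 ± 0.21 (SD, n = 4), with a limma interval of -0.31 to 0.26 and an adjusted p of 0.935.

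The other probes of Sox11 pointed in opposite directions. Probe A_52_P178018 had log2 ratios of 0.02, 0.22, 0.02 and 0.47 in replicates 1 to 4, with a mean of 0.18 ± 0.22 (SD, n = 4), above 0 in all 4, as were 10.7% of all probes. Probe A_52_P608516, the dimmest of the 3, had -0.87, 0.14, -0.44 and 0.05, with a mean of -0.28 ± 0.47 (SD, n = 4). Neither passed (limma adjusted p = 0.757 for both). With normexp and loess, A_52_P178018 had 0.08, -0.13, -0.004 and 0.53 in replicates 1 to 4, so 2 of 4 were below 0. With median centring it was above 0 in 4 of 4. A_52_P608516 was below 0 in 4 of 4 with either, at a mean of -0.29 in both. Sox4 was below 0 in 4 of 4 with loess and in 3 of 4 with median centring. Across the 8 RNAs, which share arrays in pairs, the scaled log2 levels of the 3 probes correlated between -0.23 and 0.18, so the probes did not follow each other.

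Sox12, the third SoxC gene and known as the weakest activator of them, was dim on its 1 probe. Its signal was 193.9, 210.7, 182.3 and 201.7 in the RNAs labelled mutant of replicates 1 to 4 and 222.9, 278.6, 176.5 and 171.3 in those labelled wild type. The mutant was lower on slide 1 and higher on slide 2. The mean log2 ratio was -0.08 ± 0.28 (SD, n = 4; limma adjusted p = 0.812). It stood at -0.35 ± 0.28 (SD, n = 4 arrays) with the labelled mutant in Cy5 and at 0.19 ± 0.32 in Cy3, so the sign of its mean differed between the dyes.

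**Figure D2:**
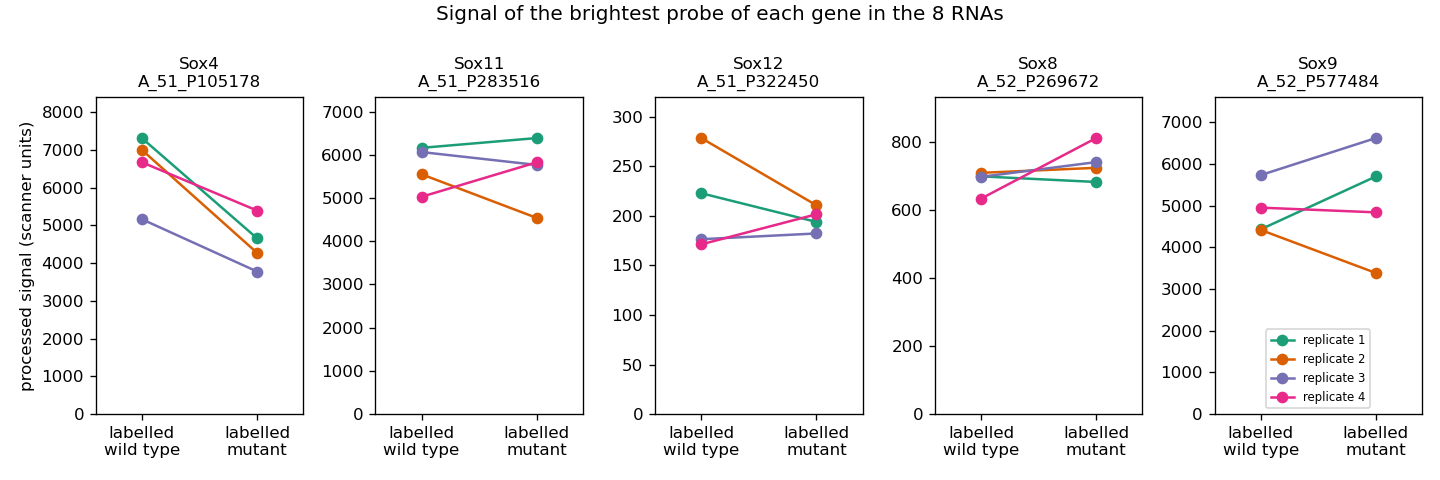
Processed signal in scanner units (y axis, from 0) of the brightest probe of each gene in the RNA labelled wild type and the RNA labelled mutant (x axis), with 1 coloured line per replicate. All 4 lines of Sox4 descend, from 7315 to 4658 in replicate 1 for example, while the lines of Sox11, Sox12, Sox8 and Sox9 run both ways; the axes differ between genes, whose signals cannot be compared.

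Sox8, the SoxE partner of Sox9 in the bud tips, had 2 probes with small positive means. On A_52_P269672 the signal was 682.2, 723.8, 740.6 and 811.3 in the RNAs labelled mutant of replicates 1 to 4 and 698.7, 709, 697.2 and 633.1 in those labelled wild type. Replicate 4 held the widest gap, and the groups overlapped. The mean log2 ratio was 0.11 ± 0.17 (SD, n = 4; limma adjusted p = 0.758), and it was -0.01 with normexp and loess. On the dim probe A_52_P269667 the log2 ratios were 0.27, 0.44, 0.03 and -0.09, with a mean of 0.16 ± 0.24 (SD, n = 4; limma adjusted p = 0.757).

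Sox9 had a mean log2 ratio above 0 on all 3 of its probes. The probe with 10 spots was the 1 of them above 0 in 4 of 4 replicates, as were 10.7% of all probes, and it did not pass over all probes. The signal of A_52_P214630 was 2105, 1541, 2395 and 3143 in the RNAs labelled mutant of replicates 1 to 4 and 1793, 1060, 1908 and 2916 in those labelled wild type. The mutant was the higher of the pair in 4 of 4 replicates, while the groups overlapped. The log2 ratios were 0.23, 0.54, 0.33 and 0.11, with a mean of 0.30 ± 0.18 (SD, n = 4), a limma interval of 0.04 to 0.57, an unadjusted p of 0.0317 and an adjusted p of 0.757. Of all probes, 3.15% were higher at an unadjusted p under 0.05. The exact sign-flip permutation test gave p = 0.125 (two-sided, n = 4).

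This probe also had the smallest gap between dyes of the 10. Its value on each array averaged 9 or 10 spots, while every other probe had 1 spot, so the gaps are not like for like. The orientations of this probe never differed by more than 0.18 (log2) within a replicate, against 0.70 for Sox4 and 1.09 for the brightest Sox11 probe. It was above 0 on 8 of 8 arrays, as were 2.24% of all probes, and with normexp and loess it was again above 0 on 8 of 8, at a mean of 0.25 ± 0.05 (SD, n = 4). With median centring it was above 0 on 7 arrays and below on 1, at a mean of 0.42 ± 0.27 (SD, n = 4). After loess, however, the orientations of replicates 3 and 4 correlated across all probes at -0.28 and -0.23, where they stood at 0.22 and 0.46 in the scanner ratios. Its spots on 1 array had an SD between 0.05 and 0.32 after outliers were left out, and spots of a probe are not replicates.

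The other probes of Sox9 were above 0 in 2 and 3 of 4 replicates. On the brightest, A_52_P577484, the signal was 5699, 3384, 6620 and 4838 in the RNAs labelled mutant of replicates 1 to 4 and 4430, 4417, 5731 and 4951 in those labelled wild type. The mutant was higher in replicates 1 and 3 and lower in replicates 2 and 4, with a mean log2 ratio of 0.04 ± 0.33 (SD, n = 4; limma adjusted p = 0.918). In replicate 2 its orientations gave -0.82 in Cy5 and 0.05 in Cy3. On the dim probe A_51_P451606 the log2 ratios were 0.09, 0.19, 0.29 and -0.09, with a mean of 0.12 ± 0.16 (SD, n = 4; limma adjusted p = 0.757). Across the 8 RNAs the levels of the 3 probes correlated between -0.57 and 0.30.

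The bud is a known place of Sox9 action, and 1 of the 3 Sox9 probes was higher in 4 of 4 replicates. The summed signal of the 7 bud markers was 30350 to 58381 in the RNAs labelled mutant and 22378 to 33345 in those labelled wild type. This sum was higher in the mutant of 4 of 4 pairs, while 10.7% of single probes were higher in 4 of 4 replicates. Of these markers 2 had a log2 ratio below 0, among them Ret of the bud tips at -0.05. The 7 markers ran from -0.125 to 0.956, with a median of 0.41. Their part in the Sox9 values was not tested. Gonad markers, another place of Sox9 expression, summed to 525 to 754 in the mutant and 491 to 730 in the wild type. Cartilage markers summed to 3578 to 4551 in the mutant and 3282 to 4626 in the wild type, lower in the mutant of 2 of 4 pairs.

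**Figure D3:**
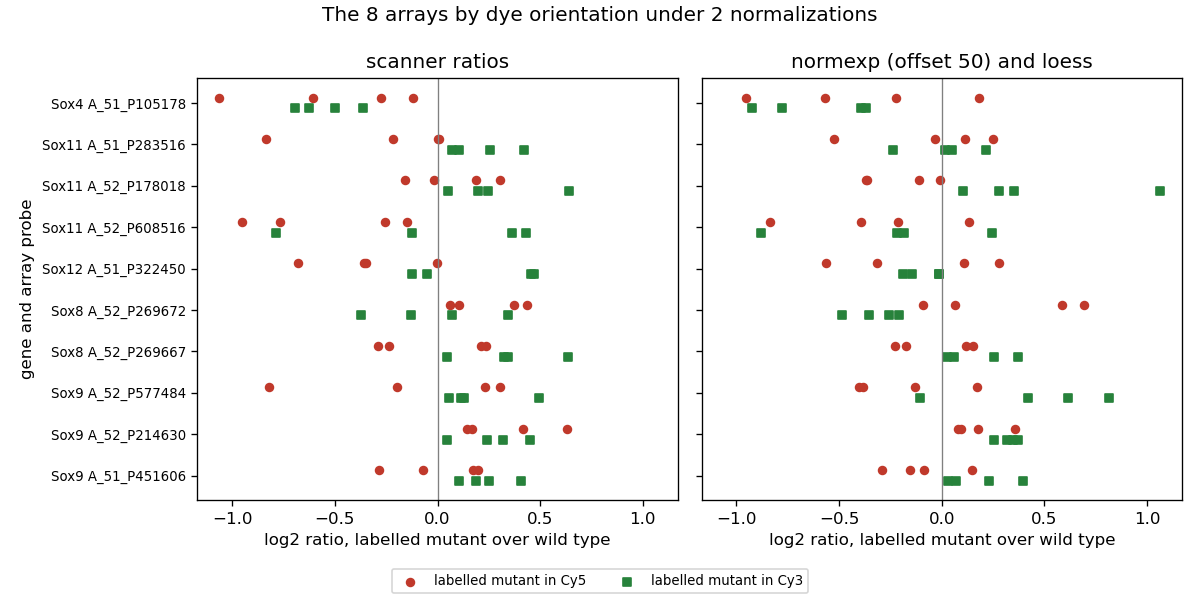
Log2 ratio of the labelled mutant over the labelled wild type (x axis) on each of the 8 arrays for the 10 probes (y axis), with red circles for arrays with the labelled mutant in Cy5 and green squares for Cy3, under the scanner's normalization (left) and under normexp and loess (right). Sox4 is below 0 on 8 arrays at left and 7 at right, and Sox9 probe A_52_P214630 is above 0 on all 8 in both.

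The brightest probes of the 5 genes were also compared with each other within replicates, in 10 pairs. On these probes, Sox4 stood below each of the other 4 in 4 of 4 replicates. The difference in log2 ratio was -0.51 ± 0.14 (SD, n = 4) from Sox11, with a range of -0.70 to -0.38, and -0.45 ± 0.10 from Sox12, with a range of -0.54 to -0.31. It was -0.64 ± 0.09 (SD, n = 4) from Sox8 and -0.57 ± 0.34 from Sox9. Each of these pairs had an exact sign-flip permutation p of 0.125 (two-sided, n = 4), the smallest the design allows, and 0.25 after Benjamini-Hochberg adjustment over the 10 pairs. All 4 pairs use the same Sox4 values, so they are not separate results. Another Sox11 probe, A_52_P608516, lay below Sox4 in replicate 1, at -0.87 against -0.65. In replicate 3 it was nearly level, at -0.44 against -0.45, and in replicates 2 and 4 it lay above, at 0.14 and 0.05. The difference from Sox11 given here is thus that of its brightest probe. Of the 6 other pairs, only Sox12 and Sox8 had 1 sign in all replicates, with Sox12 lower by a mean difference of -0.19 ± 0.17 (SD, n = 4). The adjusted exact p of those 6 pairs ran from 0.25 to 0.875.

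As a description with no test, the genes whose scaled log2 levels followed each member best over the 8 RNAs are named, 2 for each. They were Rps6ka1 (Pearson r = 0.95) and Ass1 (0.95) for Sox4, Acta2 (0.97) and Tlcd2 (0.94) for Sox11, and Neil1 (1.00) and Scn3a (0.99) for Sox12. For Sox8 they were Olfr792 (0.98) and Apol7a (0.96), and for Sox9 Dsp (0.92) and Kdm3b (0.91). These are the highest of correlations with all named genes, over 8 points that share arrays. Among the members themselves, the highest was 0.68 for Sox12 and Sox8 and the lowest -0.41 for Sox4 and Sox9.

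Of 14 other Sox factors listed, 11 were measured, 4 below 0 and 7 above, and Sox5 had the lowest value. Their median log2 ratio was 0.04, beside 0.02 over all probes, of which 46% lay below 0. None passed in limma, and 1, Sox5, had an unadjusted p under 0.05, as did 6.01% of all probes, a share against which the counts of the lists that follow are also to be read. Sox17 and Sox18, factors of the endothelium, stood at 0.05 ± 0.23 (SD, n = 4) and 0.12 ± 0.20. Sox10 is not analysed here. Sox5, a partner of Sox9 in cartilage named here after its values were seen, stood at -0.79, -1.50, -1.09 and -0.58 in replicates 1 to 4, with a mean of -0.99 ± 0.40 (SD, n = 4; limma adjusted p = 0.296). Its probe was well above background on 7 of 8 arrays and its mean was -0.44 with normexp and loess. It is, like Sox4, an entry of the authors' deposited table, at 0.99 there.

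Of the bud tip and Ret pathway genes linked to Sox8 and Sox9, Wnt11 and 1 probe of Etv5 lay above percentile 95 of all probes. This Etv5 probe was not its brightest, and neither gene passed on its brightest probe. Of 11 measured, 8 were above 0 and 3 below, and the median log2 ratio was 0.08. None passed in limma, and 1, Wnt11, had an unadjusted p under 0.05. Ret, the receptor of the tips, stood at -0.05 ± 0.28 (SD, n = 4), the transcription factor Etv5 at 0.08 ± 0.21 with another probe at 0.48, and Spry1, an inhibitor of Ret signalling, at 0.11 ± 0.39. Wnt11, a ligand of the tips, was higher in 4 of 4 replicates, as were 10.7% of all probes. Its log2 ratios were 0.27, 0.71, 0.31 and 0.41, with a mean of 0.42 ± 0.20 (SD, n = 4; limma adjusted p = 0.635).

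Genes described as SoxC targets lay on both sides of 0. Of 6 measured, 4 were below 0 and 2 above, and the median log2 ratio was -0.03. None passed in limma, and 1, Dcx, had an unadjusted p under 0.05. Tead2, a partner of YAP, stood at 0.17 ± 0.24 (SD, n = 4) and the neuronal tubulin Tubb3 at -0.02 ± 0.25. Dcx, the doublecortin of young neurons, was lower in 4 of 4 replicates, as were 5.64% of all probes. Its log2 ratios were -0.91, -0.44, -0.31 and -0.14, with a mean of -0.45 ± 0.33 (SD, n = 4; limma adjusted p = 0.745), while its 3 probes ranged from -0.45 to -0.11.

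The median log2 ratio of the 10 measured cartilage genes described as Sox9 targets was -0.07, and 6 of them lay below 0. None passed in limma, and 1, Col11a2, named after its values were seen, had an unadjusted p under 0.05. Col2a1, the collagen of cartilage, stood at -0.08 ± 0.21 (SD, n = 4), and its other probe at -0.34. Of 12 nephron progenitor and early nephron genes, 7 were below 0 and 5 above, with a median of -0.03. None passed in limma, and Wnt4 and Wt1, the latter named after its values were seen, had an unadjusted p under 0.05. Six2, which holds nephron progenitors in their state, stood at -0.04 ± 0.19 (SD, n = 4). Wnt4, a signal of early nephrons, stood at 0.26, 0.73, 0.20 and 0.77, with a mean of 0.49 ± 0.30 (SD, n = 4; limma adjusted p = 0.684), and has a value of -0.49 in the authors' deposited table. The medians of 3 lists turned sign in some alternatives. That of the other Sox factors was -0.09 under median centring, -0.09 with the mutant in Cy3 and -0.0073 with array weights. That of the SoxC targets was 0.07 under median centring, 0.0084 with the mutant in Cy5, 0.0080 within slide 1 and 0.0042 without replicate 4. That of the nephron genes was 0.12 under median centring, 0.01 within slide 1 and 0.02 without replicate 3.

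**Figure D4:**
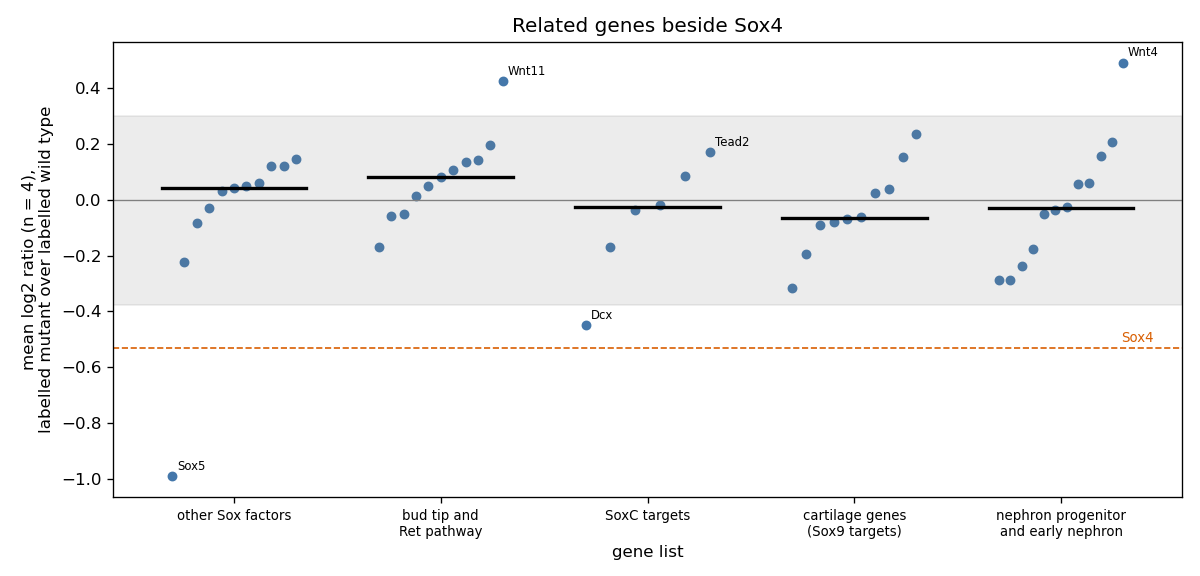
Mean log2 ratio over 4 replicates (y axis) of the measured genes in each list (x axis), with a black line at the list's median, the Sox4 mean as a dashed line and the range from percentile 5 to percentile 95 of all probes in grey. Sox5 at -0.99 lies below Sox4 at -0.53, and Dcx at -0.45, Wnt11 at 0.42 and Wnt4 at 0.49 lie outside the grey band of -0.38 to 0.30.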

How the data were processed

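Per the labels' protocols, 0.5 µg of total RNA from dissected kidneys was labelled with Cy3 or Cy5. Per the file headers, the authors extracted the two-colour arrays with Feature Extraction 10.5.1.1. The deposited log10 ratios are red over green processed signal, background-subtracted and dye-normalized. The deposited intensity columns hold processed signals and median spot and background signals, and the flags of spots are 0 or 1. The authors' deposited table holds 496 log2 ratios, and its name cites p 0.05, 1.4-fold and MeV 4.9. Aligners and builds play no part, and the array grid cites mm9, so no probe positions are given.

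Log ratios were changed to log2 and turned to mutant over wild type by the dye labels. Outlier spots were left out, spots of a probe averaged, and both arrays of a replicate averaged, since they hold the same RNAs. A probe was kept when 4 or more of the 8 arrays had it well above background in either channel, which left 39520 of 41174. Symbols came from the RefSeq table of GRCm38.p6, which matched 25097 probes. Ratios were tested against 0 with limma 3.58.1 in R 4.3.3 (lmFit and eBayes, two-sided, Benjamini-Hochberg over all probes, threshold 0.05), checked on simulated data. The brightest probe stood for a gene in lists and pairs. All member probes are reported. Of the lists, 13 genes fixed by name are described, of which 12 were measured, and Sox5, Col11a2 and Wt1 were added after their values were seen. The members and lists were chosen with earlier results of these data known. Replicate numbers pair the RNAs by hybridisation, which the ratio keeps, and no other pairing is stated. P-values measure the spread between these replicates. Alternatives changed background correction, normalization, filter, weights, dye orientation, slide, replicate and block.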

Additional observations from a re-analysis of the deposited data

Results flagged for a closer look

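In the RNAs labelled wild type, the Sox8 signal on probe A_52_P269672 in replicate 4 was 633.1 scanner units, apart from the other 3, of which the nearest was 697.2. The gap was 0.845 of the group's range, above Dixon's critical value of 0.829 for 4 samples. It was the 1 such value among 30 groups of 4 tested, where chance flags about 1 group in 20.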

How the results depend on the processing

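Over 18 alternatives, Sox4 kept its sign in all and passed in 1, with array weights (-0.469, limma adjusted p = 0.0416). Sox9 probe A_52_P214630 and Sox11 probes A_52_P178018 and A_52_P608516 kept their signs in all 17 run for them. Signs turned elsewhere, and the cause was not tested. Sox8 probe A_52_P269672 turned to -0.00568 with loess at offset 50, also with the replicate block, -0.00165 at offset 16, -0.0223 with the mutant in Cy3 and -0.00228 within slide 1. Sox11 probe A_51_P283516 turned to 0.269 with median centring, 0.212 in Cy3 and 0.0698 within slide 2, and ranged from -0.103 to 0.064 without 1 replicate. Sox12 turned to 0.0227 with array weights, 0.187 in Cy3 and 0.141 within slide 2, and ranged from -0.186 to 0.0271 without 1 replicate. Sox9 probe A_52_P577484 turned to -0.121 in Cy5 and -0.0105 within slide 1, and ranged from -0.0698 to 0.179 without 1 replicate. Sox8 probe A_52_P269667 turned to -0.0516 with median centring, -0.0189 in Cy5 and -0.0332 within slide 2, and Sox9 probe A_51_P451606 to -0.065 with median centring.

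The count of probes past the adjusted threshold was 7, of which 6 were higher. It was 1 with loess at either offset, in Cy5 and with a slide term, 2 without the filter, 0 within slide 1, and 0 to 10 without 1 replicate. It was 17 with median centring, 13 with the strict filter, 12 with 1 probe per gene, 36 in Cy3, 462 with array weights (270 higher, 192 lower) and 452 within slide 2 (104 higher, 348 lower). The replicate block gave 133 (96 higher, 37 lower), and 92 with loess, an alternative chosen after seeing the data, and called none of the 10 probes. The block's consensus correlation was 0.3 for the scanner ratios and -0.00738 with loess. With loess, the 2 arrays of a replicate thus counted nearly as separate replicates, though they hold the same RNAs. Within slide 2 the mean rests on 2 replicates.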
